A study of Mus musculus with 12 samples.

Results

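The genes described here are 10 genes of the skeletal muscle triad that take part in excitation-contraction coupling: Cacna1s, Cacnb1, Cacng1, Stac3, Ryr1, Ryr3, Trdn, Jph1, Jph2 and Bin1. They were chosen by name, by matching the NCBI Gene IDs of the count table to these symbols, and all 10 of them were found among the 27179 genes listed and passed the filter on low counts. RNA was sequenced from 12 tibialis anterior (TA) muscles of 6 mice, taken on day 7 after plasmid transfection. In each mouse the TA of one leg received empty pcDNA3 plasmid (Control) and the TA of the other leg received a plasmid encoding human *FRAIL1*, a long noncoding RNA, so that each group held 6 muscles.

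All mice were male, of the C57BL/6N strain and of WT genotype, obtained at 6 to 8 weeks of age and used within weeks of arrival. Both groups received 10 μg of plasmid by injection and electroporation after hyaluronidase, so that Control muscles carried these procedures too. *FRAIL1* was driven by the cytomegalovirus promoter, which is not specific to a cell type. The RNA was poly(A)-selected from whole muscle, so that transfected fibers, untransfected fibers and the other cells of the tissue were measured together, and fewer cells of a type and less RNA per cell cannot be told apart. The human transcript is not among the mouse genes counted, and its level was not checked here.

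Skeletal muscle contracts when an action potential runs into the T-tubules, inward folds of the fiber membrane that lie against sacs of sarcoplasmic reticulum to form triads. There the voltage sensor in the T-tubule, the dihydropyridine receptor, opens the ryanodine receptor of the facing reticulum through a direct mechanical link, and the calcium released switches on the myofilaments. The parts of this machine are a pore-forming sensor (Cacna1s) with auxiliary subunits and an adaptor, the release channels, proteins that hold both membranes together, and a protein that shapes the T-tubule.

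Whole-series depth was even between groups, with 45018389 to 59309210 counts per Control muscle and 44848322 to 60527385 per *FRAIL1* muscle. Levels are given in CPM, counts relative to library size after TMM scaling, a correction for differences in RNA composition. Changes are log2 fold changes of *FRAIL1* against Control with their standard errors (SE), and a gene was called at an adjusted p under 0.05 in the quasi-likelihood test of edgeR, adjusted by Benjamini-Hochberg over the 15502 genes tested. The TMM factor of *FRAIL1* muscle 5, 1.19, was the highest of the 12, the others lying between 0.935 and 1.07. The tissue label was checked on a list of 16 genes of muscle fiber proteins, whose summed level was 203785 to 237598 CPM in Control and 157261 to 214696 CPM in *FRAIL1* muscles, lowest in *FRAIL1* muscle 5. The median of the log2 fold changes of that list was -0.23, and 1 of its genes fell, Ckm (-0.38, adjusted p = 0.0482), the creatine kinase of muscle, which kept its call in 3 of 12 fits without 1 muscle (adjusted p up to 0.0912).

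Of the 10 triad genes, 1 rose and 1 fell, where 6.28% of all genes tested were called, 4.43% as higher and 1.85% as lower. Cacng1, the γ1 subunit of the dihydropyridine receptor, was higher in *FRAIL1* muscles with a log2 fold change of 0.37, and Ryr1, the calcium release channel, was lower with -0.42. The calls came to 20% of the 10 genes, and 7 of the 10 had an unadjusted p under 0.05, as did 27.7% of all genes tested. The median log2 fold change of the 10 was -0.21, beside 0.0096 over all genes tested, with 4 positive and 6 negative values. The test took no account of which muscles shared a mouse, which the labels do not give. With the replicate number as a block, more of the 10 and more of all genes were called, as given at the end.

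**Figure D1:**
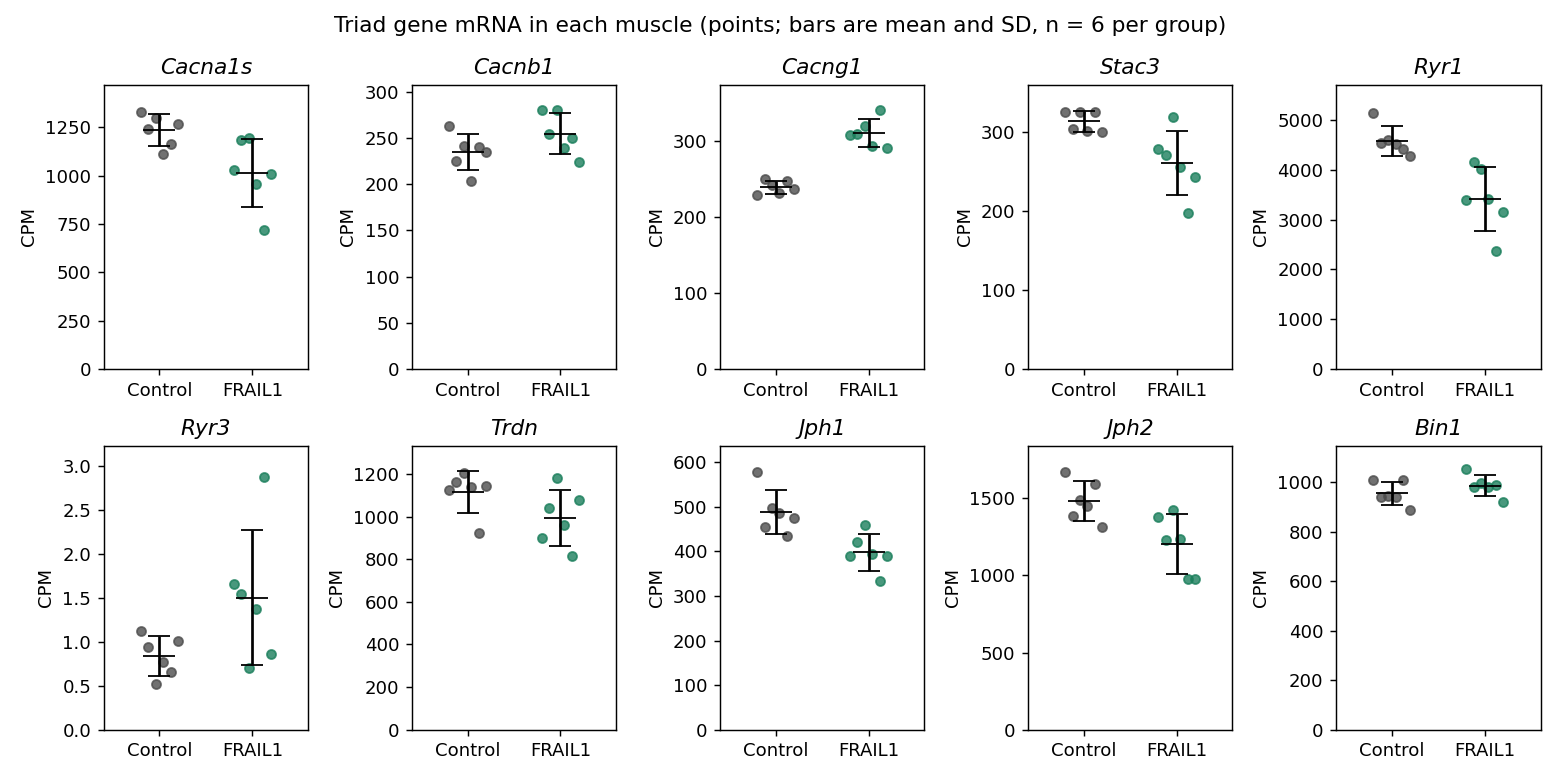
Level of each triad gene in CPM (vertical axes, from 0) in the 6 Control and 6 FRAIL1 muscles, with a point for each muscle and black bars for mean and SD. All FRAIL1 muscles lie above all Control muscles for Cacng1 (290 to 340 against 228 to 249 CPM) and below them for Ryr1 (2362 to 4155 against 4288 to 5150 CPM), and the groups overlap for the other 8 genes.

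Promoter sequence is shown for Cacna1s, Ryr1 and Jph2, genes of the sensor, the release channel and the junction whose levels in *FRAIL1* muscles averaged below Control. RefSeq promoter windows on GRCm38.p6 matched 4 of the 10 genes. The bases printed run 5′ to 3′ up to the last base before the gene as placed by RefSeq. E-boxes (CANNTG, the letters bound by MyoD and its relatives) are in capitals. The windows lie at chr1:136052561-136052805 on the plus strand for Cacna1s, at chr7:29125180-29125401 on the minus strand for Ryr1 and at chr2:163398050-163398243 on the minus strand for Jph2.
Cacna1s: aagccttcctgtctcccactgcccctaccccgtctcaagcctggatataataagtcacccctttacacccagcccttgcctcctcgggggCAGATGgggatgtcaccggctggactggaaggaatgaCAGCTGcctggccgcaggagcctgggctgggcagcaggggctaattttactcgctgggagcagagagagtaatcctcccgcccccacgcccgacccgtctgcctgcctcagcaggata
Ryr1: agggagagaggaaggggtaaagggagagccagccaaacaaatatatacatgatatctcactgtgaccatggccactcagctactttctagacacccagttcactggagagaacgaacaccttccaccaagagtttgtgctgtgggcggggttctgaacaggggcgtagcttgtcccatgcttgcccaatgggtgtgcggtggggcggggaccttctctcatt
Jph2: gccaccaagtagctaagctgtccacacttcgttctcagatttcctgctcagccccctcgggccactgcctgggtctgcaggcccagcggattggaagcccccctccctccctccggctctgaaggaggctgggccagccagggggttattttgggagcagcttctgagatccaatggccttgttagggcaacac
The Cacna1s stretch held 2 E-boxes, of which 1 reads CAGCTG, and the stretches of Ryr1 and Jph2 printed here held 0. GGGCGG, counted on both strands, was present 2 times in the Ryr1 stretch and 1 time in that of Cacna1s. Among 32851 windows of 250 bases upstream of a start, 66.2% held CANNTG, 13.0% CAGCTG and 32.7% GGGCGG. These shares are for whole windows, of which the stretches printed are parts. The whole Jph2 window held 1 CANNTG, which reads CAGCTG, and 1 GGGCGG, none of them within the printed stretch. For Cacna1s and Ryr1 the whole windows held the same counts as the printed stretches. A match is a description of letters and not of binding. The windows of Cacnb1 lay wholly within the annotated gene, so none was printed.

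The pore-forming and voltage-sensing α1 subunit of the dihydropyridine receptor is encoded by Cacna1s (Gene ID 12292, GRCm38 chr1:136052806-136119822, 45 exon blocks). It stood at 1110, 1256 and 1331 CPM as the lowest, median and highest Control muscle and at 718, 1019 and 1193 CPM in *FRAIL1* muscles. The groups overlapped: 4 *FRAIL1* muscles lay below every Control muscle, and muscles 2 and 3 lay among the Control values. The mean of 1236 ± 83.4 CPM in Control compared with 1015 ± 175 CPM in *FRAIL1* muscles (SD, n = 6 each), a log2 fold change of -0.28 (SE 0.11) that did not pass the test (adjusted p = 0.102). Leaving out *FRAIL1* muscle 3, the highest of its group, gave an adjusted p of 0.0475, in a fit that called 13.5% of all genes, and the log2 fold change lay between -0.34 and -0.20 when each muscle was left out in turn. Cacna1s passed in 5 of 25 alternative settings. On all muscles it passed with limma voom, run with a quality weight for each muscle (adjusted p = 0.0392), and missed with DESeq2 without a block (0.0558). Of the exonic bases of Cacna1s, 19.985% also lie in the exons of Gm37759 on the opposite strand, whose reads cannot be told apart from it without strand, and the strand setting of the counting is not given in the sources used here.

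Cacnb1 (Gene ID 12295, chr11:98001508-98023034, 18 exon blocks) encodes the β1 subunit, which lies on the cytoplasmic side and brings the channel to the triad. Its lowest, median and highest levels were 203, 238 and 263 CPM in Control and 224, 252 and 281 CPM in *FRAIL1* muscles. The groups overlapped over most of their range, with 2 *FRAIL1* muscles (1 and 3) above every Control muscle. The log2 fold change was 0.12 (SE 0.07, adjusted p = 0.309).

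Cacng1 (Gene ID 12299, chr11:107703218-107716476, 4 exon blocks) encodes the γ1 subunit, a membrane protein known to limit the calcium current of the channel. Control muscles held 228, 239 and 249 CPM and *FRAIL1* muscles 290, 308 and 340 CPM as the lowest, median and highest value. The groups did not overlap, as for 4.88% of all genes tested in either direction and 3.12% with *FRAIL1* higher, and the highest value was that of *FRAIL1* muscle 5. The mean rose from 239 ± 8.55 to 310 ± 18.2 CPM (SD, n = 6 each), 1.30-fold, with a log2 fold change of 0.37 (SE 0.06, adjusted p = 0.0032). The call held when each of the 12 muscles was left out, with log2 fold changes of 0.34 to 0.39 and adjusted p-values up to 0.0123, and in all 25 alternative settings.

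Stac3 (Gene ID 237611, chr10:127501617-127508823, 10 exon blocks) encodes an adaptor needed for the sensor to be expressed at the surface and to act on the release channel. The lowest, median and highest values were 299.7, 314 and 325 CPM in Control and 197, 263 and 319 CPM in *FRAIL1* muscles. Among *FRAIL1* muscles, 5 lay below every Control muscle and muscle 3 lay within the Control range. The log2 fold change was -0.26 (SE 0.09) and did not pass the test (adjusted p = 0.0811). It passed in 6 of 25 alternative settings, among them that without *FRAIL1* muscle 3 (adjusted p = 0.0220). On all muscles it passed with limma voom with quality weights (adjusted p = 0.0284) and with DESeq2 (0.0404).

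Ryr1 (Gene ID 20190, chr7:29003340-29125179, 109 exon blocks) encodes the calcium release channel of skeletal muscle and had the highest counts of the 10 genes, 126328 to 254055 per muscle. Its lowest, median and highest levels were 4288, 4528 and 5150 CPM in Control and 2362, 3410 and 4155 CPM in *FRAIL1* muscles. The groups did not overlap, as for 1.77% of all genes tested with *FRAIL1* lower, and muscle 5 was the lowest by a wide margin, with muscle 6 next at 3155 CPM. The mean fell from 4585 ± 298 to 3419 ± 647 CPM (SD, n = 6 each), 0.746 of the Control level, with a log2 fold change of -0.42 (SE 0.11, adjusted p = 0.0415). That call depended on single muscles: it was lost when any Control muscle or *FRAIL1* muscle 1, 4 or 6 was left out (adjusted p = 0.0590 to 0.0904) and held without *FRAIL1* muscle 2 (0.0211), 3 (0.0194) or 5 (0.0178). The log2 fold change stayed between -0.49 and -0.34 in those 12 fits, and the gene was called in 16 of 25 alternative settings in all. Of its exonic bases, 4.19% overlap genes on the opposite strand, Gm26604 and Gm44408.

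Ryr3 (Gene ID 20192, chr2:112631354-113217405, 107 exon blocks) encodes the ryanodine receptor found in embryonic and newborn muscle and in a few adult muscles. It was near the lower end of detection, with 25 to 154 counts per muscle. The lowest, median and highest levels were 0.517, 0.859 and 1.12 CPM in Control and 0.702, 1.46 and 2.88 CPM in *FRAIL1* muscles. In 4 *FRAIL1* muscles Ryr3 was above every Control muscle, most of all in muscle 5, and muscles 3 and 6 lay among the Control values. The log2 fold change was 0.84 (SE 0.31, adjusted p = 0.0991), falling to 0.55 without *FRAIL1* muscle 5 (adjusted p = 0.241) and reaching 0.99 without *FRAIL1* muscle 3 (adjusted p = 0.0359). Aven lies on the opposite strand and covers 4.83% of the exonic bases of Ryr3.

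Trdn (Gene ID 76757, chr10:33083483-33476709, 38 exon blocks) encodes triadin, which ties the release channel to calsequestrin inside the reticulum. It stood at 921, 1141 and 1202 CPM in Control and at 814, 999 and 1182 CPM in *FRAIL1* muscles, as lowest, median and highest. The groups overlapped widely, since Control muscle 5 was itself low and *FRAIL1* muscle 3 was exceeded by Control muscle 3 alone. The log2 fold change was -0.16 (SE 0.09, adjusted p = 0.263).

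Junctophilins bridge the T-tubule and the reticulum membrane. Jph1 (Gene ID 57339, chr1:16942104-17097922, 7 exon blocks) had lowest, median and highest levels of 434, 481 and 578 CPM in Control and 333, 393 and 460 CPM in *FRAIL1* muscles. Only muscle 3 of the *FRAIL1* group lay within the Control range, the other 5 being below every Control muscle. Its log2 fold change was -0.29 (SE 0.08) with an adjusted p of 0.0513, on the edge of the threshold. It passed in 10 of 25 alternative settings, among them those without *FRAIL1* muscle 2 (adjusted p = 0.0448, with 10.1% of all genes called) and without *FRAIL1* muscle 3 (0.0210).

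Jph2 (Gene ID 59091, chr2:163336242-163398049, 6 exon blocks), the junctophilin shared with heart, had lowest, median and highest levels of 1310, 1469 and 1669 CPM in Control and 975, 1234 and 1424 CPM in *FRAIL1* muscles. The groups overlapped, with 4 *FRAIL1* muscles below every Control muscle and muscles 5 and 6 nearly equal at the bottom (978 and 975 CPM). Its log2 fold change was -0.30 (SE 0.10, adjusted p = 0.0811), and leaving out *FRAIL1* muscle 3 gave an adjusted p of 0.0349. The gene passed in 5 of 25 alternative settings. On all muscles it passed with DESeq2 (adjusted p = 0.0354) and missed with limma voom with quality weights (0.0521).

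Bin1 (Gene ID 30948, chromosome 18, 32376618 to 32435740, 19 exon blocks) encodes amphiphysin 2, which bends membrane into T-tubules. Its lowest, median and highest levels were 889, 943 and 1011 CPM in Control and 919, 984 and 1054 CPM in *FRAIL1* muscles, with the ranges almost on top of each other. The log2 fold change was 0.05 (SE 0.06, adjusted p = 0.652). Of its exonic bases, 6.22% overlap A830052D11Rik on the opposite strand.

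Muscle by muscle, the *FRAIL1* group was uneven. *FRAIL1* muscle 5 was the lowest of all 12 muscles for 5 of the 10 genes (Cacna1s, Stac3, Ryr1, Trdn and Jph1) and the highest for Cacng1 and Ryr3, while muscle 3 was the highest *FRAIL1* muscle for 6 genes: Cacna1s, Cacnb1, Stac3, Trdn, Jph1 and Jph2. Relative to the Control mean of log2 CPM, muscle 5 stood at -0.95 for Ryr1, -0.78 for Cacna1s and 0.51 for Cacng1, and muscle 3 stood at -0.19, -0.05 and 0.42. On this scale Cacng1 lay between 0.28 and 0.51 in all 6 *FRAIL1* muscles, a narrower span than the -0.95 to -0.14 of Ryr1.

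**Figure D2:**
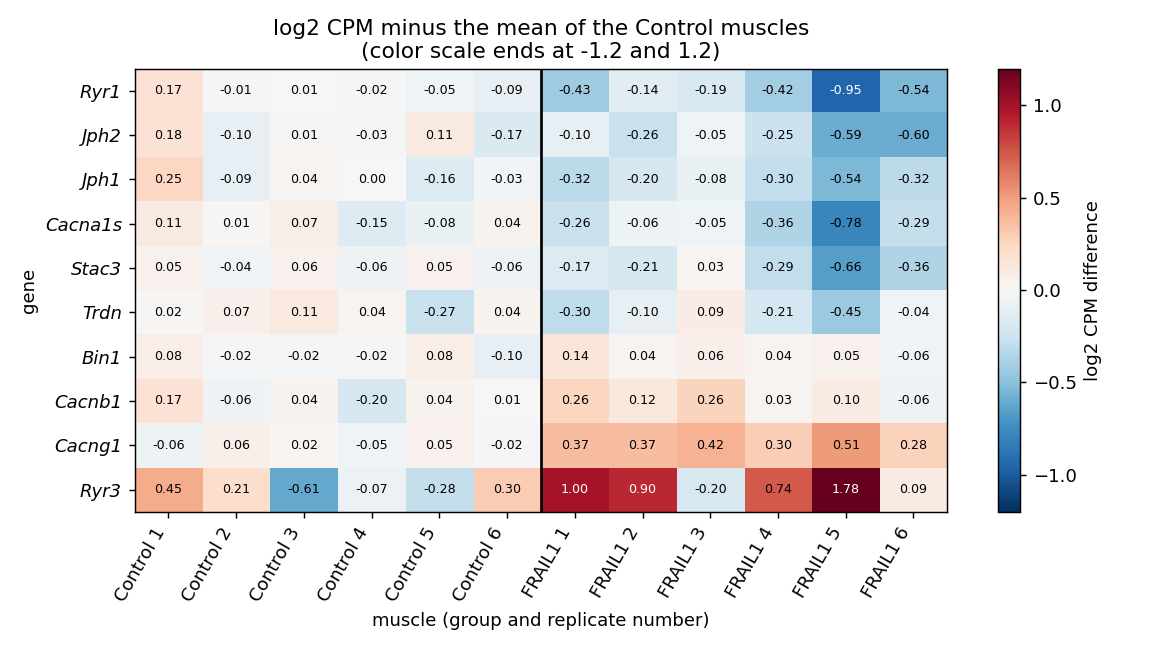
log2 CPM of the 10 triad genes (rows) in the 12 muscles (columns, Control left and FRAIL1 right of the black line), as the difference from the mean of the Control muscles, blue below and red above. FRAIL1 muscle 5 holds the lowest values of Ryr1 (-0.95) and Cacna1s (-0.78) and the highest of Cacng1 (0.51) and Ryr3 (1.78).

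Marker lists of other fiber states and cell types differed between the groups too. The summed level of 10 genes of regenerating fibers was 839 to 1524 CPM in Control and 1280 to 4864 CPM in *FRAIL1* muscles, highest in muscle 5 (next 3183 CPM), and 6 of the 10 rose (60%, beside 6.28% of all genes called), among them Myh3, embryonic myosin, with a log2 fold change of 2.16 (adjusted p = 0.0124). Of 12 genes that respond to denervation, 7 rose (58.3%), and their sums did not overlap (177 to 226 against 313 to 479 CPM), with *FRAIL1* muscles 5 and 2 highest at 479 and 439 CPM. Of 8 genes of slow and oxidative fibers, 3 rose (37.5%), the troponin genes Tnnt1, Tnni1 and Tnnc1. The other 5 (Myh7, Myl2, Myl3, Myh2 and Myh7b) had log2 fold changes between -0.55 and 0.47 and did not pass, and those of Myh7, Myl2 and Myh2 took either sign as each muscle was left out. The sums of this list, 349 to 2334 CPM in Control and 517 to 1777 CPM in *FRAIL1* muscles, consisted mainly of Myh2, the myosin of fast IIa fibers, which was 2133 CPM in Control muscle 6 and 1448 CPM in *FRAIL1* muscle 6. Sums of 10 fibroblast genes were 1323 to 2493 against 2581 to 6758 CPM (highest in muscle 5, next 3331), 2 of them higher, and those of 10 macrophage genes 262 to 418 against 327 to 832 CPM with 0 called, although 7 had an unadjusted p under 0.05. Of 8 endothelial genes 2 fell, and of 5 smooth muscle and 6 Schwann cell genes 0 were called by edgeR, with 3 and 2 at an unadjusted p under 0.05. The part of these differences in the levels of the triad genes was not tested. Scaling each muscle by the myofiber list in place of TMM, which raised the median of all genes by 0.20, left Ryr1 lower at -0.24 (adjusted p = 0.0380) and Cacng1 higher at 0.58 (adjusted p = 0.0033). Under that scaling, which called 20.3% of all genes, Cacnb1 (0.32, adjusted p = 0.0157), Bin1 (0.25, 0.0260) and Ryr3 (1.09, 0.0404) were also called higher, and Cacna1s (-0.10, 0.298), Stac3 (-0.08, 0.287), Jph1 (-0.10, 0.307) and Jph2 (-0.11, 0.245) were closer to 0. Trdn turned from -0.16 to 0.02 (0.844), and the median of the 10 genes was -0.03, with 5 positive and 5 negative values.

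Levels can be set against each other only per length, here that of the merged exons of all annotated transcripts. Which of these transcripts the muscles held was not examined, so the order is approximate. Divided by the exonic length, the Control order was Jph2 (348 CPM per kb), Bin1 (232), Ryr1 (210.0), Cacng1 (191), Cacna1s (189), Stac3 (123), Trdn (119), Jph1 (97.6), Cacnb1 (51.8) and Ryr3 (0.0441). Bin1, Ryr1, Cacng1 and Cacna1s each overlapped their neighbours over the 6 muscles, as did Stac3, Trdn and Jph1, and the other steps were larger than the spread. In *FRAIL1* muscles Cacng1 (248 CPM per kb) was second to Jph2 (283), ahead of Bin1 (239), and it overlapped both. Ryr1 (157) and Cacna1s (155) came next, below the lowest Bin1 value, followed by Trdn (106), Stac3 (102), Jph1 (79.7), Cacnb1 (56.3) and Ryr3 (0.0793). In both groups Cacnb1 lay below the lowest value of Jph1, and Ryr3 below that of every other gene.

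**Figure D3:**
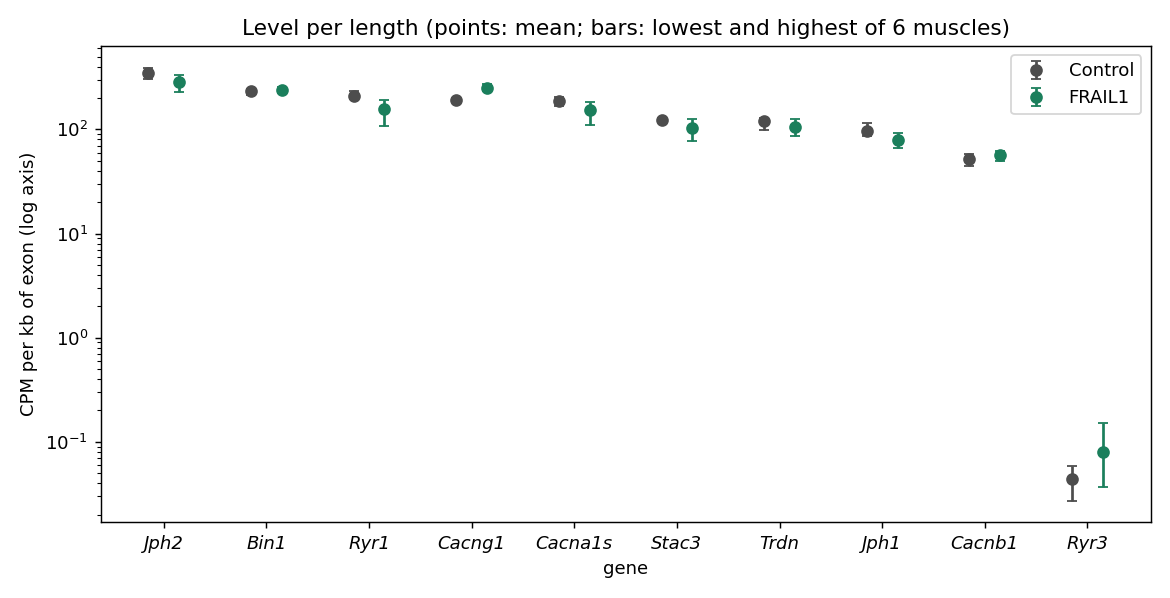
Level per exonic length (CPM per kb, log axis) of the 10 triad genes, with the mean as a point and the lowest and highest of 6 muscles as bars, Control gray and FRAIL1 green. Cacng1 moves from 191 to 248 CPM per kb while Ryr1 moves from 210.0 to 157, and Ryr3 stays below 0.2 CPM per kb in both groups.

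Ratios of counts within a muscle do not depend on scaling, and 6 of them were compared by a two-sided exact permutation test over all splits of the muscles into 6 and 6, adjusted over the 6. These 6 ratios were chosen with earlier results of these data known. Several share Ryr1, itself called lower, or Cacna1s, so they are not independent of each other. Cacnb1 against Cacna1s rose from 19.0 ± 0.990 to 25.7 ± 4.95 counts per 100 (SD, n = 6 each), without overlap between groups (log2 difference 0.42, exact p = 0.0022, the smallest the test can give, adjusted p = 0.0130). Trdn against Ryr1 rose from 24.4 ± 2.42 to 29.6 ± 3.93 per 100 (log2 difference 0.28, exact p = 0.0216, adjusted p = 0.0325). Cacna1s against Ryr1 rose less, from 27.0 ± 1.79 to 29.8 ± 1.44 per 100 (log2 difference 0.14, exact p = 0.0152, adjusted p = 0.0303).

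Ryr3 against Ryr1 rose from 0.0182 ± 0.0047 to 0.0489 ± 0.0374 counts per 100 (log2 difference 1.19, exact permutation p = 0.0130, adjusted p = 0.0303), with *FRAIL1* muscle 5 highest at 0.122. Both remaining ratios were close in the groups. Stac3 against Cacna1s was 25.4 ± 1.68 and 25.8 ± 1.89 per 100 (log2 difference 0.02, SE 0.06, exact permutation p = 0.688), and Jph2 against Jph1 was 305 ± 31.5 and 302 ± 34.2 (log2 difference -0.02, SE 0.09, exact permutation p = 0.866). Cacng1 against Cacna1s, a ratio chosen after its values were seen and therefore given with no test, was 17.2 to 21.2 per 100 in Control and 26.0 to 47.4 per 100 in *FRAIL1* muscles.

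**Figure D4:**
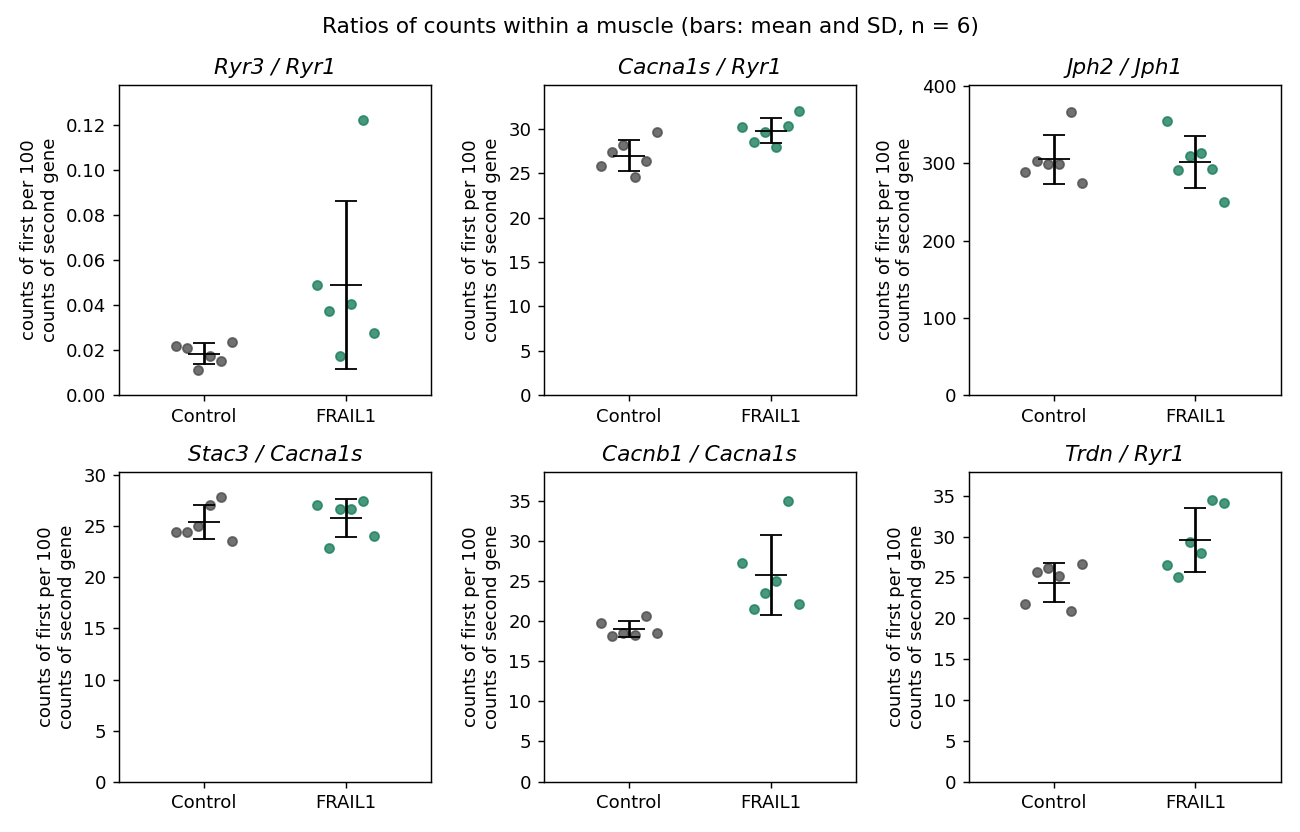
Counts of the first gene per 100 counts of the second in each muscle (vertical axes, from 0), with black bars for mean and SD. Cacnb1 per Cacna1s is higher in all FRAIL1 than in all Control muscles (means 25.7 and 19.0), and Stac3 per Cacna1s lies at like values in both groups (25.8 and 25.4).

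Within groups, the levels of several triad genes varied together. Deviations of log2 CPM from the group mean over the 12 muscles were compared for all 45 pairs by a permutation test of Pearson's r, and 5 pairs passed after Benjamini-Hochberg adjustment. For each pair, r was also taken without the 2 muscles farthest from the median of the first gene named. Stac3 and Jph2 correlated at r = 0.84 (permutation p = 0.00021, adjusted 0.0094; rho = 0.88, p = 0.0020), and r was 0.87 without *FRAIL1* muscles 3 and 5. Ryr1 and Jph1 correlated at r = 0.84 (permutation p = 0.00099, adjusted 0.0223; rho = 0.79, p = 0.0014), and r was 0.85 without *FRAIL1* muscles 2 and 5. Jph2 and Bin1 correlated at r = 0.74 (permutation p = 0.0033, adjusted 0.0297; rho = 0.78, p = 0.0021) and 0.82 without *FRAIL1* muscles 5 and 6.

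Cacna1s and Ryr1 had the highest r, 0.92 (permutation p = 0.0030, adjusted 0.0297; rho = 0.69, p = 0.0212), which was 0.72 without *FRAIL1* muscles 3 and 5 and 0.49 within the Control group. Cacna1s and Jph1 had r = 0.79 (permutation p = 0.0018, adjusted 0.0277; rho = 0.73, p = 0.0121) and 0.56 without these muscles. The muscles share mice in pairs and are not all independent.

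Over 13009 genes with a mean of at least 1 CPM, genes most like Ryr1 by the same measure over the 12 muscles were Scn4a (r = 0.99), the sodium channel of the muscle fiber, and Ccnk (0.98), a cyclin of transcription. Those most like Cacna1s were Rufy1 (0.98), Sptb (0.98), a spectrin of the membrane skeleton, and Ube3b (0.97), a ubiquitin ligase. For Cacng1 they were Zdhhc1 (0.94), Plppr3 (0.91) and Nisch (0.90). Ccnk was called lower (-0.57, adjusted p = 0.04997), as was Scn4a, and the genes named for Cacna1s and Cacng1 did not pass.

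Other genes listed with the triad and its calcium release, direct partners among them, moved in both directions. Of 22 such genes, 2 rose and 2 fell, 18.2% of the list beside 6.28% of all genes, with a median log2 fold change of -0.03. Casq2, the calsequestrin of heart and slow muscle, which binds calcium in the reticulum, stood at 66.1, 81.1 and 105 CPM in Control and at 85.0, 155 and 324 CPM in *FRAIL1* muscles as lowest, median and highest. It rose by 1.02 on the log2 scale (SE 0.26, adjusted p = 0.0425), with 5 *FRAIL1* muscles above every Control muscle, and muscle 5 far above the others. That call was lost without any Control muscle or *FRAIL1* muscle 1, 4 or 6 (adjusted p = 0.0548 to 0.0892). Casq1, the fast fiber form and by far the more abundant of this pair, was at 3690, 4149 and 4403 CPM in Control and 3859, 4088 and 4746 CPM in *FRAIL1* muscles (log2 fold change 0.03, SE 0.08, adjusted p = 0.836).

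Fkbp1b, the FK506-binding protein 1B that attaches to ryanodine receptors, rose by 1.001 (SE 0.21, adjusted p = 0.0186), with a range of 0.373 to 0.732 CPM in Control and 0.913 to 1.33 CPM in *FRAIL1* muscles. Its groups did not overlap, on only 17 to 67 counts per muscle. Calm3, a calmodulin gene, fell by 0.35 (SE 0.10, adjusted p = 0.0470), also without overlap, with 460 to 576 CPM in Control and 293 to 449 CPM in *FRAIL1* muscles. Homer1, a scaffold protein that binds ryanodine receptors, fell by 0.39 (SE 0.10, adjusted p = 0.0411), with 4 *FRAIL1* muscles below every Control muscle. The calls of Calm3 and Homer1 were each lost when 1 of 9 muscles was left out: for Calm3 any Control muscle or *FRAIL1* muscle 1, 4 or 6 (adjusted p = 0.0611 to 0.101), and for Homer1 Control muscle 1, 2, 3, 4 or 6 or *FRAIL1* muscle 1, 4, 5 or 6 (0.0505 to 0.0892). Both calls were also lost with scaling to the myofiber list (0.0833 and 0.1498).

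Cacna2d1, the α2δ1 subunit of the dihydropyridine receptor, had a log2 fold change of -0.23 (SE 0.11, adjusted p = 0.182). Asph, whose products include junctin, stood at -0.01 (adjusted p = 0.929), and Jsrp1, a junctional protein that binds the sensor, at -0.15 (adjusted p = 0.167). The levels of all 3 overlapped between groups.

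**Figure D5:**
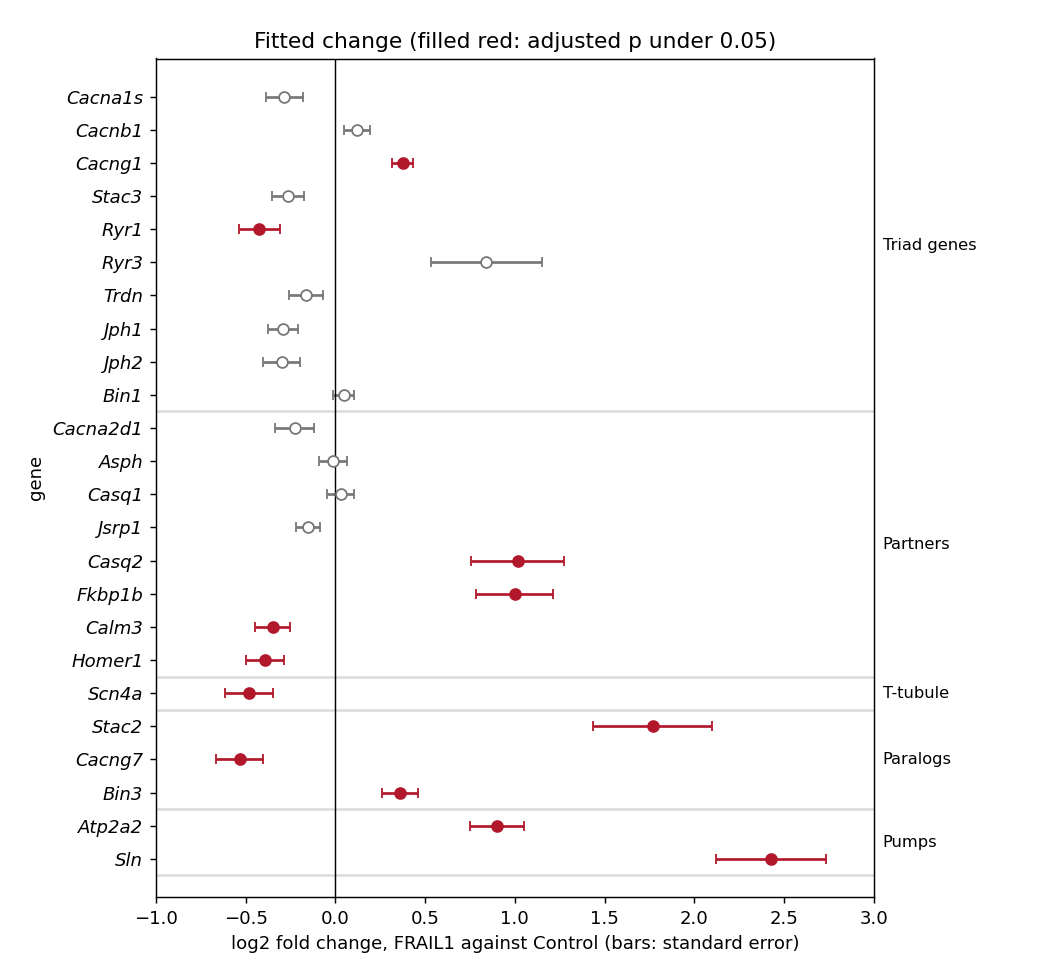
Fitted log2 fold change of FRAIL1 against Control muscles (horizontal axis, bars standard error) for the 10 triad genes and the named genes of the related lists, filled red where the adjusted p is under 0.05. Among triad genes Cacng1 (0.37) lies right and Ryr1 (-0.42) left of 0 as called genes, and the largest rise shown is that of Sln (2.43).

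Among 15 genes of the T-tubule and fiber membrane, 0 rose and 1 fell (6.67%, beside 6.28% of all genes), with a median of 0.0086. That gene, Scn4a, was at 433 to 545 CPM in Control and 212 to 436 CPM in *FRAIL1* muscles, with 5 of the 6 below every Control muscle (log2 fold change -0.48, SE 0.13, adjusted p = 0.0470). Its call was lost without any Control muscle or *FRAIL1* muscle 1, 4 or 6 (adjusted p = 0.0611 to 0.0975).

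Of 15 tested paralogs of the triad genes, 2 rose and 1 fell (20%, beside 6.28% of all genes), with a median of -0.08. Stac2, a relative of Stac3, had lowest, median and highest levels of 0.497, 1.39 and 1.88 CPM in Control and 2.45, 4.25 and 7.63 CPM in *FRAIL1* muscles. The groups did not overlap, and the log2 fold change was 1.77 (SE 0.33, adjusted p = 0.0124), held in every fit that left out 1 muscle. Bin3, a BAR domain protein, rose by 0.36 (SE 0.10, adjusted p = 0.0479), from a mean of 7.34 to 9.43 CPM, and Cacng7, a γ subunit best known from brain, fell from 12.5 to 8.64 CPM (-0.53, SE 0.13, adjusted p = 0.0311). Bin3 lost its call without any Control muscle or *FRAIL1* muscle 1, 4, 5 or 6 (adjusted p = 0.0534 to 0.0957), and Cacng7 without Control muscle 1, 2 or 5 or *FRAIL1* muscle 1, 4 or 6 (0.0547 to 0.0709) and with scaling to the myofiber list (0.0550).

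Calcium released at the triad is pumped back by SERCA and buffered in the cytosol. Of 11 tested genes for pumps, exchangers, regulators and buffers, 2 rose and 0 fell (18.2%, beside 6.28% of all genes), with a median of -0.13. Sln, sarcolipin, which slows SERCA, had lowest, median and highest levels of 12.1, 13.8 and 28.0 CPM in Control and 58.9, 73.3 and 153 CPM in *FRAIL1* muscles, without overlap (log2 fold change 2.43, SE 0.31, adjusted p = 0.0026). Atp2a2, the SERCA2 pump of slow muscle and heart, was at 73.3, 75.4 and 79.6 CPM and at 101, 131 and 227 CPM, also without overlap (0.90, SE 0.15, adjusted p = 0.0077). Atp2a1, the SERCA1 pump of fast fibers, had a log2 fold change of -0.27 (adjusted p = 0.107) at a mean of 48011 CPM in Control.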

How the data were processed

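Poly(A) RNA of 12 TA muscles was sequenced. According to the submitters' processing notes and the study's methods, the authors trimmed reads with Trimmomatic, mapped them to mm10 with STAR (2.7.8a) and deposited counts of uniquely mapped reads per gene made with featureCounts (2.0.1), without normalization. The strand setting is not given in the sources used here. Of 27179 Gene IDs, 25275 were matched to a symbol and position (RefSeq names and positions, GENCODE exons, GRCm38), and the others held 0.280% of counts. No muscle was a copy of another (chi-square per degree of freedom within a group 15.2 or more).

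Groups came from the labels, which do not say which numbers belong to one mouse, so p-values measure the spread between muscles. Genes were filtered with filterByExpr and scaled by TMM. edgeR 4.0.16 (R 4.3.3) gave quasi-likelihood tests in its robust form, adjusted by Benjamini-Hochberg across 15502 genes. DESeq2 1.42.0 and limma 3.58.1 (voom with a quality weight for each muscle) served as alternatives, with other scalings, filters and each muscle left out. The fit was tested on simulated data. CPM used TMM library sizes, and length is that of the merged exons. Promoter windows were cut at the first base of the RefSeq gene.

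The members, lists and tests were chosen with earlier results of these data known. All 10 members were named, and of each related list every called gene (at most 8) plus Cacna2d1, Asph, Casq1, Casq2 and Jsrp1; for Cacna1s, Ryr1 and each called member, the 3 most correlated genes, of which 1 is not reported here. Other genes of the lists and markers were named after their values were seen.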

Additional observations from a re-analysis of the deposited data

Results flagged for a closer look

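Of 48 sets of 6 muscles examined (24 genes in each group), 5 held a muscle that stood apart from the rest of its set by Dixon's test, and chance alone flags about 1 set in 20. Ryr1 in Control muscle 1 was 5150 CPM, with the next at 4604 CPM. Trdn in Control muscle 5 was 921 CPM, with the next lowest at 1122 CPM. Casq2 in *FRAIL1* muscle 5 was 324 CPM and Atp2a2 in the same muscle 227 CPM, where the next values were 174 and 136 CPM. Bin3 in Control muscle 5 was 8.30 CPM, with the next at 7.23 CPM.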

How the results depend on the processing

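Of 25 alternative settings, Cacng1 was called in 25 and Ryr1 in 16. Most changed 1 choice or named pair of choices. The fits with the DESeq2 test changed the filter, the scaling and the test together, and the limma fit changed the test and weighted each muscle by quality. Calls among the 10 triad genes (2 in the report) were 5 with scaling to the myofiber list, 5 with limma voom and 5 with DESeq2, and 1 to 7 as each muscle was left out, with 7 without *FRAIL1* muscle 3. Among triad partners (4) the counts were 10, 7 and 8 with these 3 settings, 2 without both muscles numbered 5, and 1 to 7 with 1 muscle left out. Among T-tubule genes (1) they were 8, 3 and 2, with 0 where no filter was used and 0 to 2 with 1 muscle left out. Among paralogs (3) there were 5 with limma voom and 1 to 5 with 1 muscle left out, and among pumps and buffers (2) 4 with DESeq2 and 2 to 3 with 1 muscle left out. Over all genes (974 of 15502 tested, 70.5% of them higher) they were 3141 of 15502 (97.4% higher), 1836 of 15502 (54.1%) and 2154 of 15258 (57.7%). With 1 muscle left out they were 364 of 15606 to 2110 of 15607 (58.2% to 86.3% higher), and without both muscles numbered 5 55.1% were higher. Among the 10 triad genes, the genes named by rule and the ratios, directions turned for Trdn (0.024), Asph (0.19) and Jsrp1 (0.041) under the myofiber scaling, and with 1 muscle left out for Asph (range -0.048 to 0.024), Casq1 (-0.0070 to 0.051) and the log2 ratio of Jph2 to Jph1 (-0.066 to 0.036). The cause of these changes was not tested.

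The labels do not say that a replicate number marks a mouse. Deviations from the group means of same-numbered muscles correlated at 0.254, 0.162, 0.282, 0.263, 0.0547 and 0.185 for numbers 1 to 6, and 10 of 12 muscles correlated best with their own number, a hint from the data and not the design. With the replicate number as a block, calls were 6 triad genes (Cacna1s, Cacng1, Stac3, Ryr1, Jph1 and Jph2), 7 partners, 3 T-tubule genes and 5 paralogs. Over all genes they were 2186 of 15502 tested (53.0% higher), beside 974 of 15502 without a block, and Casq2 missed the threshold (adjusted p = 0.0727). With the block and without both muscles numbered 5, these lists had 7, 9, 3 and 6. There were also 4 pumps and buffers, and 2305 of 15525 genes in all (47.4% higher). DESeq2 with the block gave 7, 11, 3, 5, 4 and 2829 of 14854 genes (49.8% higher). In the blocked sign-flip test over 64 sign patterns, p-values were not adjusted over the 6 ratios. The exact p was 0.0625 for Trdn to Ryr1 (log2 difference 0.28), which no longer passed. It was 0.03125, the smallest this test can give, for Ryr3 to Ryr1, Cacna1s to Ryr1 and Cacnb1 to Cacna1s. These ratios are under 0.05 only without the adjustment used in the main test. Jph2 to Jph1 (0.8125) and Stac3 to Cacna1s (0.5625) did not pass in either test.

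The call of Ryr1 held in 3 of 12 fits without 1 muscle. Depth limits mainly Ryr3 (25 to 154 counts per muscle) and Fkbp1b (17 to 67).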
